A study of Arabidopsis thaliana with 39 samples.

Results

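The arrays described here are OZ1-2, OZ1-3, OZ1-6 and OZ1-10, 4 of the 20 arrays of the region OZ1 whose profiles lie near those of the region OZ2. They were chosen by their title numbers, and those numbers had been picked because the log2 signals of all genes on these arrays resembled OZ2. Their differences from the other 16 OZ1 arrays are therefore given as a description with no test. The series holds 39 Affymetrix ATH1 arrays, 20 of OZ1 and 19 of OZ2, from total RNA of the oscillation zone of the Arabidopsis thaliana root tip. All plants were of ecotype Columbia, carried the DR5-GUS auxin reporter and were 5 days old on standard media, so every group shares genotype, age and treatment. The labels' description places OZ1 below OZ2 and their tissue entry places it above, and the regions are therefore called by name alone. The design text speaks of separate roots, while 14 of the 25 title numbers occur in both regions, and p-values measure the spread between arrays as deposited.

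The oscillation zone is the stretch of the root tip in which auxin response rises and falls and where founder sites of lateral roots are laid down. Cells there leave the meristem, stop dividing and elongate, which uses expansins, xyloglucan-remodelling enzymes and endoglucanases to loosen and rebuild the wall, and some epidermal cells then form hairs. Histone genes are transcribed mainly while DNA is replicated. ATG8 proteins coat the membrane of the forming autophagosome. In a dissected piece of tissue, fewer cells of a type and less RNA per cell cannot be told apart.

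The labels were compared with the profiles by placing each array on an axis that runs from 0 at the mean of the OZ1 arrays to 1 at the mean of the OZ2 arrays, both means taken without the array itself. OZ1-2, OZ1-3, OZ1-6 and OZ1-10 lay at 0.84, 0.72, 0.75 and 1.09, and the other 16 OZ1 arrays at -0.40 to 0.26 with a median of -0.13. The lowest of the 4 chosen arrays, OZ1-3 at 0.72, and the highest of the others, OZ1-9 at 0.26, are the values on either side of the choice. Among the OZ2 arrays, all lay between 0.78 and 1.25 except OZ2-32 at 0.29 and OZ2-38 at -0.35. OZ2-6 and OZ2-10, which carry the same title numbers as 2 of the chosen arrays, lay at 1.19 and 0.78, within the range of their own region. In the submitters' order the 4 arrays hold positions 6, 13, 7 and 11 of 39. OZ1-2, OZ1-6 and OZ1-10 were scanned on day 1, which held 12 OZ1 and 10 OZ2 arrays, and OZ1-3 on day 2, which held 8 OZ1 arrays and none of OZ2.

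Control RNAs added in the laboratory took no part in the choice and were tested. The hybridisation control level, a mean log2 signal over 18 probe sets (BioB, BioC, BioDn and CreX, bacterial and phage RNAs added before hybridisation), was 12.75, 14.04, 14.29 and 14.54 on OZ1-2, OZ1-3, OZ1-6 and OZ1-10. On the other 16 OZ1 arrays it ran from 10.74 to 14.54 with a median of 12.41, so the groups overlapped. The means were 13.90 ± 0.80 (SD, n = 4) and 12.36 ± 1.21 (SD, n = 16), a log2 difference of 1.54 that did not pass after adjustment over 4 control measures (exact permutation test over all splits of the 20 arrays, two-sided, p = 0.0266, adjusted p = 0.0533). Within scan day 1 it was 1.75 and did not pass either (exact permutation p = 0.0682, adjusted p = 0.136).

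The poly-A control level (27 probe sets for bacterial RNAs added before labelling) had log2 signals of 8.01, 9.42, 10.50 and 11.18 on OZ1-2, OZ1-3, OZ1-6 and OZ1-10. On the other 16 it ran from 3.14 to 10.00 with a median of 6.30. The log2 difference of 3.57 passed over all OZ1 arrays (exact permutation test, two-sided, p = 0.00351, adjusted p = 0.0140) and not on scan day 1 alone, where it was 2.16 (adjusted p = 0.109). The other 7 OZ1 arrays of scan day 2, with title numbers 13 to 20, lay between 3.14 and 4.92, and OZ1-3 of that day at 9.42. OZ2 arrays with title numbers 13 to 21, scanned on day 3, were also low, at 3.28 to 5.37. OZ2-36, OZ2-39 and OZ2-40 of day 3 read 9.76, 10.26 and 10.06. The poly-A level thus went with the title number in both regions, and the permutation test did not allow for that. The actin and GAPDH 3' to 5' signals, read as signs of RNA quality, differed by -0.63 and -0.62 on the log2 scale (exact permutation test, adjusted p = 0.337 and 0.209). The amount of sample RNA per array is not known here, and the part of the control levels in the differences below was not tested beyond the values given with them. The other OZ1 arrays with over 5% of their signal in the hybridisation controls were OZ1-15, OZ1-16 and OZ1-31, at 5.95%, 5.49% and 9.55%. On the axis they lay at -0.09, -0.09 and 0.04, and their poly-A control levels were 4.92, 4.92 and 10.00. The 4 chosen arrays held 3.18%, 5.82%, 8.88% and 10.5%, so OZ1-2 lies below the 5% cut-off.

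**Figure D1:**
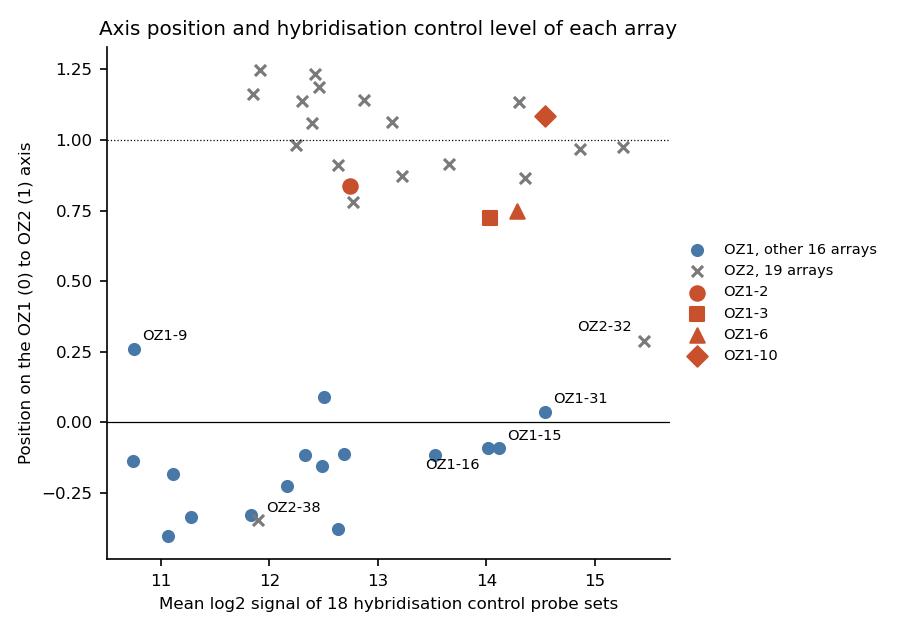
Position of each of the 39 arrays on the axis from OZ1 (0) to OZ2 (1) against its mean log2 signal over 18 hybridisation control probe sets. The 4 chosen arrays (red) lie at 0.72 to 1.09, while OZ1-15, OZ1-16 and OZ1-31 lie at -0.09 to 0.04 at control levels of 14.01 to 14.54.

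How much of the OZ2 programme the 4 arrays carried was read against other arrays only. Probe sets called at least 2-fold apart between OZ2 and the other OZ1 arrays on one set of scan days were taken, and each array of the remaining days was placed on the OZ2 or OZ1 side of the midpoint between those groups. The OZ2 arrays of day 3 against the other OZ1 arrays of day 2 gave 4280 calls (31.4% of 13627 probe sets), of which 1879 higher and 1964 lower in OZ2 were at least 2-fold apart and were read on the arrays of day 1. Day 1 gave 2373 calls (17.4%), of which 1001 and 1262 were read on the arrays of days 2 and 3. Of the higher part, OZ1-2, OZ1-3, OZ1-6 and OZ1-10 had 88.0%, 82.4%, 76.0% and 81.5% on the OZ2 side. The other 16 OZ1 arrays had 6.89% to 54.2% (median 27.9%) and the 19 OZ2 arrays 15.5% to 94.5% (median 87.1%). Of the lower part the 4 arrays had 73.6%, 61.3%, 64.2% and 71.3% on the OZ2 side, the other 16 had 5.39% to 53.5% (median 18.2%), and OZ2 had 11.5% to 86.7% (median 74.8%). In both parts all 4 arrays lay above all 16, an order that follows from the choice, and all 4 had a larger share of the higher than of the lower part. The medians of the 16 (27.9% and 18.2%) and of OZ2 (87.1% and 74.8%) differed in the same direction, so this is not particular to the 4 arrays.

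**Figure D2:**
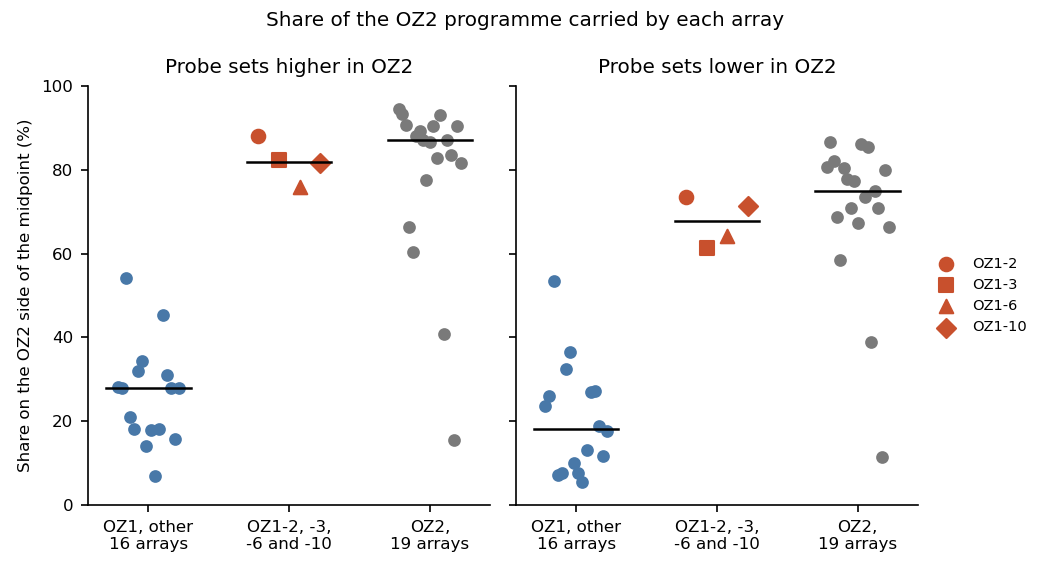
Share (%) of the probe sets higher (left) and lower (right) in OZ2 that each array has on the OZ2 side of the midpoint, with points for arrays and lines for group medians. The 4 chosen arrays lie at 76.0% to 88.0% on the left and 61.3% to 73.6% on the right, the other 16 OZ1 arrays at up to 54.2% and 53.5%.

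Across the 13627 probe sets tested, 4830 (35.4%) were at least 2-fold apart between the 4 and the 16 arrays, 2561 (18.8%) higher and 2269 (16.7%) lower on the 4. On 490 probe sets (3.60%) all 4 arrays lay above all 16, and on 427 (3.13%) all 4 lay below. Between OZ2 and OZ1 as labelled, 3949 probe sets (29.0%) passed the limma test at an adjusted p under 0.05, 1819 (13.3%) higher and 2130 (15.6%) lower in OZ2, and after blocking on the scan day 1535 (11.3%) passed, with 4.56% of all probe sets higher and 6.71% lower. Day 2 held only OZ1 arrays and day 3 only OZ2 arrays, so the blocked fit compares the regions on day 1 alone. Day 1 held 3 of the 4 chosen arrays, and OZ2-32 and OZ2-38, at 0.29 and -0.35 on the axis. Without the chosen arrays, a fit of day 1 gave 2373 calls (17.4%). Whether the scan day or these arrays kept a gene from passing after blocking was not tested. A region difference is the OZ2 mean minus the mean of all 20 OZ1 arrays, the 4 included. Where the 4 follow OZ2, it is smaller than the difference of OZ2 from the 16. In what follows "rose" and "fell" refer to the limma test over all 39 arrays, OZ2 against OZ1, without the block. Of 7526 named genes with a tested probe set, 337 passed it with a log2 difference of at least 2. For 187 of these all 4 arrays lay on the OZ2 side of the midpoint between the 16 and OZ2, for 141 they lay on both sides, and for 9 all 4 lay on the OZ1 side. The median log2 difference of the 4 from the 16 over named genes was 0.04, with 1380 genes at least 2-fold higher and 1297 lower. Quantile normalization moved the median over all tested probe sets from 0.05 to -0.13.

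The 4 arrays carried high signals of the root hair expansins. In every sentence of this kind values are log2 signals, and the chosen arrays are in the order OZ1-2, OZ1-3, OZ1-6 and OZ1-10. EXPA7 had log2 signals of 11.64, 10.38, 11.09 and 11.76, against 4.12 to 10.40 (median 6.97) on the other 16 and 3.93 to 13.33 (median 12.01) in OZ2. EXPA18 had log2 signals of 10.46, 9.78, 11.03 and 11.34, against 4.02 to 9.45 (median 5.85) on the 16 and 7.08 to 13.15 (median 11.76) in OZ2. For EXPA18 the 4 arrays lay above all 16, and for EXPA7 only OZ1-3 overlapped them, by a single array. The log2 differences of the 4 from the 16 were 4.25 for EXPA7 and 4.68 for EXPA18, and the 4-array means differed from the OZ2 means by -0.03 and -0.48. The OZ2 mean of EXPA7 includes OZ2-38 at 3.93 and OZ2-10 at 7.23. In both genes all 4 arrays lay below the OZ2 median. SCN1, a RhoGDI that limits where hairs start, had a log2 difference of 0.35 and did not pass between the regions (limma adjusted p = 0.282). EXPA7 rose in OZ2 (limma adjusted p = 9.17e-05), though not after blocking on the scan day (adjusted p = 0.0960), and EXPA18 passed in both fits (blocked adjusted p = 0.00260). Of 4 named genes of this list 3 passed the filter on low values, and XTH26 did not, at a mean log2 signal of 3.55 on the 4 arrays and 3.27 on the 16. On OZ1-15, OZ1-16 and OZ1-31, the other arrays with high hybridisation controls, the list's median log2 difference from the other unchosen OZ1 arrays was -1.09, -0.91 and -0.06. The unchosen OZ1-9 had a mean log2 signal over the list of 10.30, above that of the chosen OZ1-3 at 10.11.

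PRX72 (AT5G66390), a peroxidase of lignin formation, gave one of the widest gaps, and it is the only gene tested of the xylem marker list. Its log2 signals were 9.91, 9.56, 10.61 and 11.70, against 1.52 to 6.63 (median 3.86) on the 16 and 5.72 to 13.67 (median 10.17) in OZ2. All 4 arrays lay above all 16 and inside the OZ2 range. The locus AT4G13580 read 10.89, 11.02, 11.95 and 14.27 on the log2 scale, against 2.74 to 7.25 (median 5.77) and 7.89 to 14.68 (median 11.69). AT2G21100 read 8.65, 9.21, 10.42 and 12.70, against 2.35 to 7.51 (median 5.48) and 7.48 to 14.45 (median 10.90). These 3 genes form 1 list, all rose in OZ2 in the fits with and without a block on the scan day, and their median log2 difference of the 4 from the 16 was 6.42. The annotation used here gives the AT4G13580 and AT2G21100 loci no further name. Where the level of the 16 lies near or below the filter level of 5.69, the size of such a difference is uncertain.

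The locus AT3G18280 had log2 signals of 12.77, 12.66, 12.58 and 14.35, against 3.04 to 8.66 (median 6.48) on the 16 and 6.33 to 14.96 (median 12.71) in OZ2. Its log2 difference of 6.95 was the highest of all named genes. AT3G53980, listed with it, read 4.86, 7.69, 4.92 and 10.74, against 1.30 to 6.81 (median 3.39) and 2.69 to 14.54 (median 8.91). Only OZ1-3 and OZ1-10 lay above all 16 for AT3G53980, and OZ1-2 and OZ1-6 overlapped them. MT1C, a metallothionein, read 10.33, 10.31, 12.51 and 14.26, against 2.40 to 10.51 (median 7.22) and 5.83 to 15.46 (median 13.21). OZ1-6 and OZ1-10 lay above all 16 for MT1C, while OZ1-2 and OZ1-3 lay below its highest value there, which was that of OZ1-15 at 10.51.

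Of 13 expansin genes tested (19 named), 4 rose and 2 fell in OZ2, and after blocking on the scan day 2 rose and 2 fell. Beside the hair expansins, the expansin-like genes EXLA1 and EXLB1 were high on the 4 arrays. EXLA1 had log2 signals of 9.37, 9.84, 10.23 and 11.13, against 5.38 to 9.12 (median 7.42) on the 16 and 8.17 to 12.29 (median 9.90) in OZ2. EXLB1 read 7.54, 7.57, 7.62 and 9.38, against 2.72 to 7.50 (median 5.74) and 2.70 to 9.53 (median 8.06). The 4 arrays lay above all 16 in both genes, though for EXLB1 narrowly on OZ1-2, OZ1-3 and OZ1-6. Of the expansins that fell, EXPA9 read 7.23, 7.13, 7.86 and 7.94, against 7.52 to 9.85 (median 8.60) and 4.06 to 9.09 (median 7.02). OZ1-2 and OZ1-3 lay below all 16 and OZ1-6 and OZ1-10 among them. EXPB1 was low only on OZ1-10, at a log2 signal of 5.05, and lay between 7.57 and 8.98 on the other 3 and between 6.75 and 9.67 on the 16. The list's median log2 difference was -0.15, beside 0.04 over all named genes, and turned to 1.21 when only probe sets above the 60th percentile were kept.

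Xyloglucan endotransglucosylase/hydrolases (XTH), enzymes that cut and rejoin xyloglucan, had 8 tested genes of 10 named, of which 6 rose and 1 fell in OZ2, and 1 rose and 1 fell after blocking on the scan day. Their median log2 difference on the 4 arrays was 1.86. XTH20 had log2 signals of 7.05, 8.54, 8.55 and 7.79, against 4.25 to 7.48 (median 5.76) on the 16 and 4.10 to 10.07 (median 8.04) in OZ2. XTH21 read 9.06, 10.56, 9.91 and 9.73, against 4.38 to 9.79 (median 7.65) and 1.64 to 11.53 (median 10.29). XTH27, listed as EXGT-A3, read 11.38, 11.35, 10.82 and 10.15, against 6.38 to 10.46 (median 9.00) and 8.33 to 11.56 (median 10.90). In each of these genes 2 or 3 of the 4 arrays lay above all 16, and none of the 8 genes had all 4 above. XTH32, which rose by 2.82 in OZ2, read 6.58, 4.84, 6.94 and 7.93, against 1.52 to 6.54 (median 4.92) and 2.91 to 9.74 (median 8.20). OZ1-3 sat at the middle of the 16 for XTH32, and the other 3 lay above them all. XTH16, which fell in OZ2, lay at 7.86, 9.43, 9.41 and 6.98 within the range of the 16 (4.94 to 9.47).

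The GH9 endoglucanases, cellulose-cleaving wall enzymes, followed OZ2 in part. Of 9 tested (15 named), 2 rose and 3 fell in OZ2, and after blocking on the scan day none rose and 2 fell. GH9C1 had log2 signals of 11.18, 9.02, 10.91 and 12.07, against 3.19 to 10.24 (median 7.20) on the 16 and 6.48 to 12.39 (median 11.35) in OZ2. OZ1-2, OZ1-6 and OZ1-10 lay above all 16 and OZ1-3 below the highest of them. GH9B13, which fell, read 12.26, 12.31, 12.17 and 8.75, against 7.97 to 12.19 (median 10.93) and 2.13 to 12.26 (median 10.27). OZ1-2 and OZ1-3 lay above all 16 and OZ1-6 just below their highest value for GH9B13, opposite to the region difference, and OZ1-10 was low. GH9C2, which also fell, read 6.08, 7.75, 8.21 and 6.11, against 5.99 to 8.14 (median 6.88) and 1.66 to 8.65 (median 5.90). For GH9C2 only OZ1-6 left the range of the 16, above it. GH9B7 read 11.39, 11.95, 11.42 and 10.10, against 10.51 to 12.85 (median 12.15) and 10.10 to 12.49 (median 10.95), with OZ1-10 alone below the 16.

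TBL proteins belong to the family of wall polysaccharide O-acetyltransferases, and 19 of 23 named genes of this list were tested. In OZ2 5 rose (3 after blocking on the scan day) and 3 fell (2 after it). On the 4 arrays 8 were at least 2-fold higher and 3 lower, with a median log2 difference of 0.73. TBL38 had log2 signals of 11.31, 12.24, 11.66 and 11.82, against 4.47 to 9.92 (median 7.52) on the 16 and 6.80 to 12.52 (median 11.50) in OZ2. TBL41 read 9.79, 9.55, 9.18 and 10.08, against 5.63 to 8.41 (median 7.26) and 6.74 to 11.92 (median 10.92). The 4 arrays lay above all 16 in both, around the OZ2 median for TBL38 and below it for TBL41. TBL40 (AT2G31110) read 9.31, 10.19, 9.29 and 9.36, against 5.62 to 8.31 (median 7.16) and 5.10 to 9.23 (median 8.42). The 4 arrays thus lay above every other array of both regions for TBL40, which did not pass between the regions (limma adjusted p = 0.103). TBL39, which fell in OZ2, read 11.73, 11.96, 11.61 and 10.49, against 10.86 to 13.10 (median 12.72) and 7.27 to 13.01 (median 11.09).

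Among pectin-linked genes, 5 of 7 were tested, 4 of them fell and 1 rose in OZ2, and after blocking on the scan day 3 fell. The rise was that of PME41 (listed as ATPMEPCRB), a pectin methylesterase, which read 7.75, 8.72, 7.87 and 8.06, against 3.73 to 7.78 (median 7.04) on the 16 and 5.40 to 9.33 (median 8.12) in OZ2. OZ1-3, OZ1-6 and OZ1-10 lay above all 16 for PME41 and OZ1-2 just below their highest value. The 4 that fell are listed by locus and have no further name in the annotation used here. AT5G62340 had log2 signals of 3.93, 6.64, 7.25 and 3.28, against 8.57 to 12.69 (median 11.10) and 2.21 to 11.63 (median 4.90). AT5G51490 read 5.49, 4.10, 5.09 and 5.45, against 6.81 to 10.14 (median 9.42) and 2.17 to 9.97 (median 3.99). AT3G50900 read 6.70, 7.39, 6.60 and 8.09, against 9.42 to 11.86 (median 10.30) and 2.60 to 10.81 (median 6.32). In these 3 loci all 4 arrays lay below all 16. AT5G62330 read 3.47, 5.11, 7.44 and 4.77, against 5.58 to 10.39 (median 9.02) and 2.17 to 8.38 (median 3.79), with only OZ1-6 overlapping the 16.

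**Figure D3:**
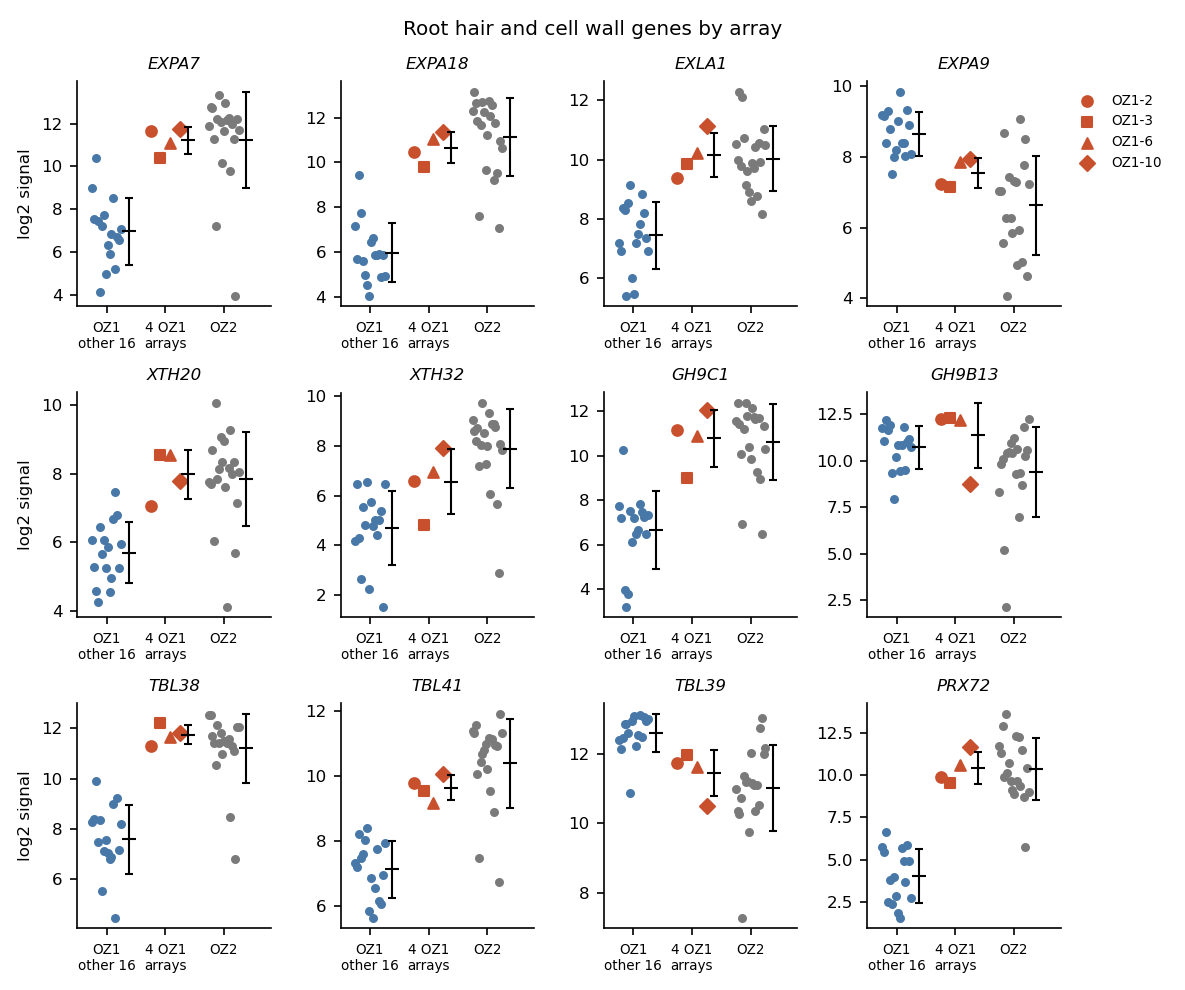
Log2 signals of 12 root hair and wall genes on the other 16 OZ1 arrays (blue), the 4 chosen arrays (red) and the 19 OZ2 arrays (grey), with bars for the mean ± SD. The 4 arrays lie above all 16 for EXPA18, EXLA1, TBL38, TBL41 and PRX72, while for GH9B13 OZ1-2, OZ1-3 and OZ1-6 lie at 12.17 to 12.31, near the highest of the 16 (12.19), and OZ1-10 at 8.75.

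Autophagy was carried unevenly. Of 11 named genes 10 were tested, and 7 rose in OZ2, all in the ATG8 family, of which 3 passed after blocking on the scan day. ATG8E had log2 signals of 10.41, 7.60, 9.80 and 8.68, against 1.41 to 8.21 (median 5.95) on the 16 and 6.41 to 11.34 (median 10.10) in OZ2. ATG8H read 11.23, 9.36, 10.81 and 12.12, against 3.48 to 10.29 (median 8.68) and 8.26 to 12.90 (median 11.13). In both genes OZ1-2, OZ1-6 and OZ1-10 lay above all 16 and OZ1-3 among them. ATG8D, at 8.77, 8.48, 8.98 and 10.21 against 6.89 to 8.37 (median 7.57) and 8.01 to 9.88 (median 8.97), was the member with all 4 arrays above all 16. ATG8F read 10.14, 9.08, 9.36 and 10.94, against 6.99 to 10.23 (median 8.51) and 8.90 to 12.13 (median 10.66). Only OZ1-10 lay above the 16 for ATG8F.

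ATG8C had a log2 difference of 0.72 from the 16, beside a region difference of 0.69, which is taken from all 20 OZ1 arrays, the 4 included. For ATG8A (listed as APG8A) and ATG8I (listed as APG8H) the log2 differences of 0.37 and 0.27 were smaller than the region differences of 0.91 and 0.87. Against midpoints from the other scan days, OZ1-2 had all 7 of the genes that rose on the OZ2 side, OZ1-6 and OZ1-10 had 5 each, and OZ1-3 had 2. Here and in the counts below, OZ1-3 was read against midpoints of day 1. OZ1-2, OZ1-6 and OZ1-10 were read against those of days 2 and 3, so the cut-offs differ. The 16 had a median of 0 and at most 6, and OZ2 a median of 7. Outside these, ATG8G read 7.74, 6.89, 3.59 and 7.26, against 4.18 to 8.82 (median 7.29) on the 16. ATG3, the enzyme that joins ATG8 to lipid, and ATG101 (AT5G66930), of the complex that starts autophagy, had log2 differences of 0.11 and 0.27 and did not pass between the regions (limma adjusted p = 0.979 and 0.714). The median log2 difference of the 4 arrays was 0.55 over the 10 tested autophagy genes and 1.00 over the ATG8 family alone. On OZ1-15, OZ1-16 and OZ1-31 that of the ATG8 family was -0.19, -0.66 and -0.47. The family's mean log2 signal was 9.14, 9.24 and 9.07 on the unchosen OZ1-9, OZ1-23 and OZ1-35. These lay above the chosen OZ1-3 at 8.69 and OZ1-6 at 8.94.

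**Figure D4:**
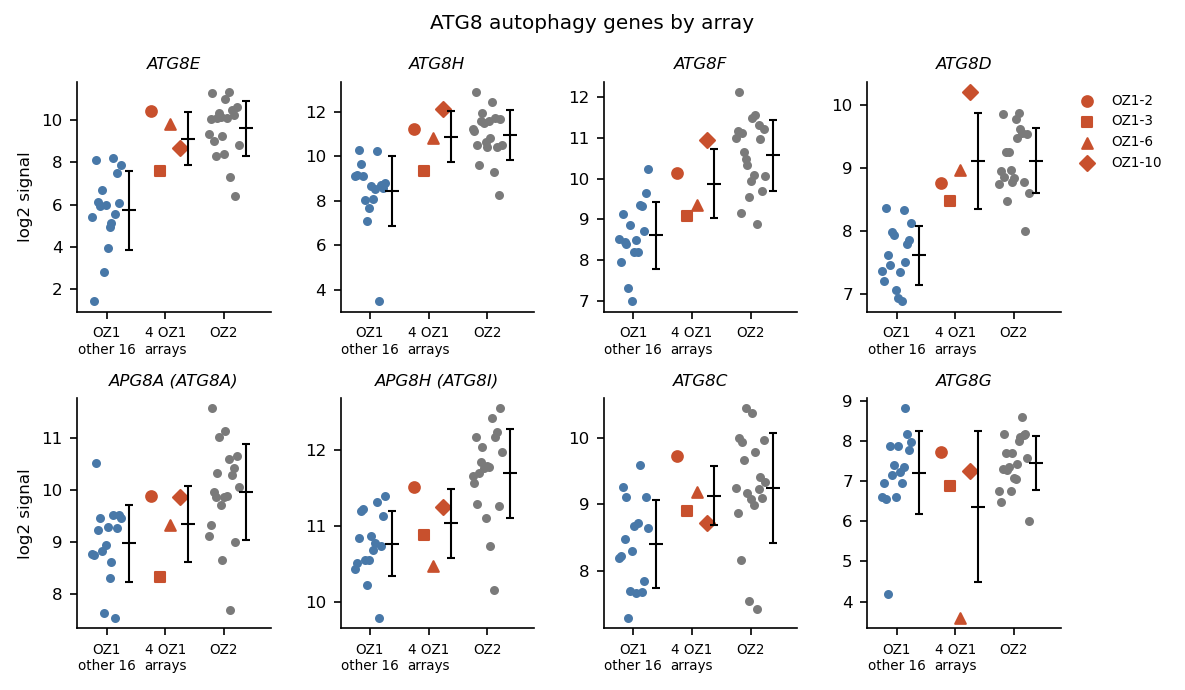
Log2 signals of 8 ATG8 genes on the other 16 OZ1 arrays (blue), the 4 chosen arrays (red) and OZ2 (grey), with bars for the mean ± SD. OZ1-3 (square) lies among the 16 for ATG8E at 7.60 and ATG8H at 9.36, where the other 3 chosen arrays lie above them all.

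Histone H2B genes were low on all 4 arrays. HTB1 had log2 signals of 8.99, 8.80, 8.40 and 8.82, against 9.57 to 11.83 (median 11.18) on the 16 and 7.40 to 11.13 (median 9.29) in OZ2. HTB2 read 8.40, 8.28, 7.36 and 7.98, against 8.76 to 12.43 (median 9.43) and 3.48 to 9.54 (median 7.54). HTB4 read 10.99, 11.01, 10.51 and 10.81, against 11.44 to 14.34 (median 12.46) and 8.29 to 12.55 (median 10.78). In these genes, which fell in OZ2, all 4 arrays lay below all 16. HTB11 read 10.00, 9.84, 9.61 and 10.56, against 11.02 to 13.14 (median 11.67) and 9.42 to 12.05 (median 10.99). It did not pass between the regions (limma adjusted p = 0.131), and its mean on the 4 arrays lay 0.97 below that of OZ2. After blocking on the scan day only HTB4 passed (adjusted p = 0.0474). The median log2 difference of the 4 genes was -1.85 on the chosen arrays, 1.07 on OZ1-15, 1.58 on OZ1-16 and -0.45 on OZ1-31. H2B genes resemble each other in sequence, and whether 1 probe set reads several of them was not tested. A further histone gene, HTR12, did not pass the filter.

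The genes of mitosis and replication did not follow the histones. BUB3.1, a spindle checkpoint protein, had log2 signals of 7.49, 6.90, 7.44 and 6.82, against 5.85 to 8.65 (median 7.77) on the 16 and 2.97 to 8.60 (median 6.58) in OZ2. PRL, the replication helicase subunit MCM7, read 7.09, 8.04, 8.04 and 7.70, against 6.74 to 8.57 (median 8.06) and 4.63 to 9.31 (median 7.07). The aurora kinase AUR1 read 7.69, 8.13, 8.35 and 7.88, against 5.54 to 8.98 (median 7.89) and 4.42 to 9.63 (median 6.96). Every one of these values for the 4 arrays lay inside the range of the 16. The lowest of the 16 was OZ1-23 for BUB3.1 and AUR1 and OZ1-9 for PRL. For BUB3.1 all 4 arrays lay below the median of the 16, and also for PRL, there narrowly on OZ1-3 and OZ1-6. All 3 genes fell in OZ2, by 1.51, 0.82 and 0.93 on the log2 scale (limma adjusted p = 0.00194, 0.0209 and 0.0396), and none passed after blocking on the scan day. AUR2, which did not pass, read 6.24, 6.51, 7.72 and 7.64, against 1.53 to 8.11 (median 6.27). Of the 3 that fell, OZ1-2 and OZ1-10 had 1 each on the OZ2 side of the midpoint from other scan days, and OZ1-3 and OZ1-6 had none. The list's median log2 difference on the 4 arrays was 0.0049, beside -0.88 between the regions, and 4 of 5 named genes were tested.

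Tubulins, the subunits of microtubules, separated the 4 arrays from each other. Of 7 genes 5 fell in OZ2 both before and after blocking on the scan day, and TUA1 rose before it only. TUB1 had log2 signals of 11.69, 10.55, 10.35 and 8.29, against 10.33 to 12.43 (median 11.57) on the 16 and 5.80 to 11.46 (median 10.13) in OZ2. TUB5 read 10.14, 8.97, 9.54 and 8.11, against 9.59 to 11.84 (median 10.78) and 4.53 to 10.56 (median 8.85). TUA6 read 12.32, 12.00, 12.41 and 10.09, against 9.36 to 13.01 (median 11.32) and 8.60 to 11.38 (median 10.21). OZ1-10 was the lowest of the 4 in each, and for TUA6 the other 3 lay above the highest OZ2 array. TUB6 read 10.08, 10.12, 10.00 and 9.19, against 9.27 to 10.97 (median 10.19) and 4.24 to 10.31 (median 9.03). TUB7 read 8.40, 9.23, 8.83 and 8.10, against 6.77 to 9.20 (median 8.39) and 5.59 to 8.90 (median 7.31). Of the 5 genes that fell, OZ1-2 had 0, OZ1-3 had 1, OZ1-6 had 2 and OZ1-10 had 4 on the OZ2 side of the midpoint from other scan days. Over all 7 tubulins the median log2 difference on the 4 arrays was 0.39, and 0.03 within scan day 1, beside -1.32 between the regions. Over the 5 that fell, picked by that region test, it was -0.27 beside -1.37.

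**Figure D5:**
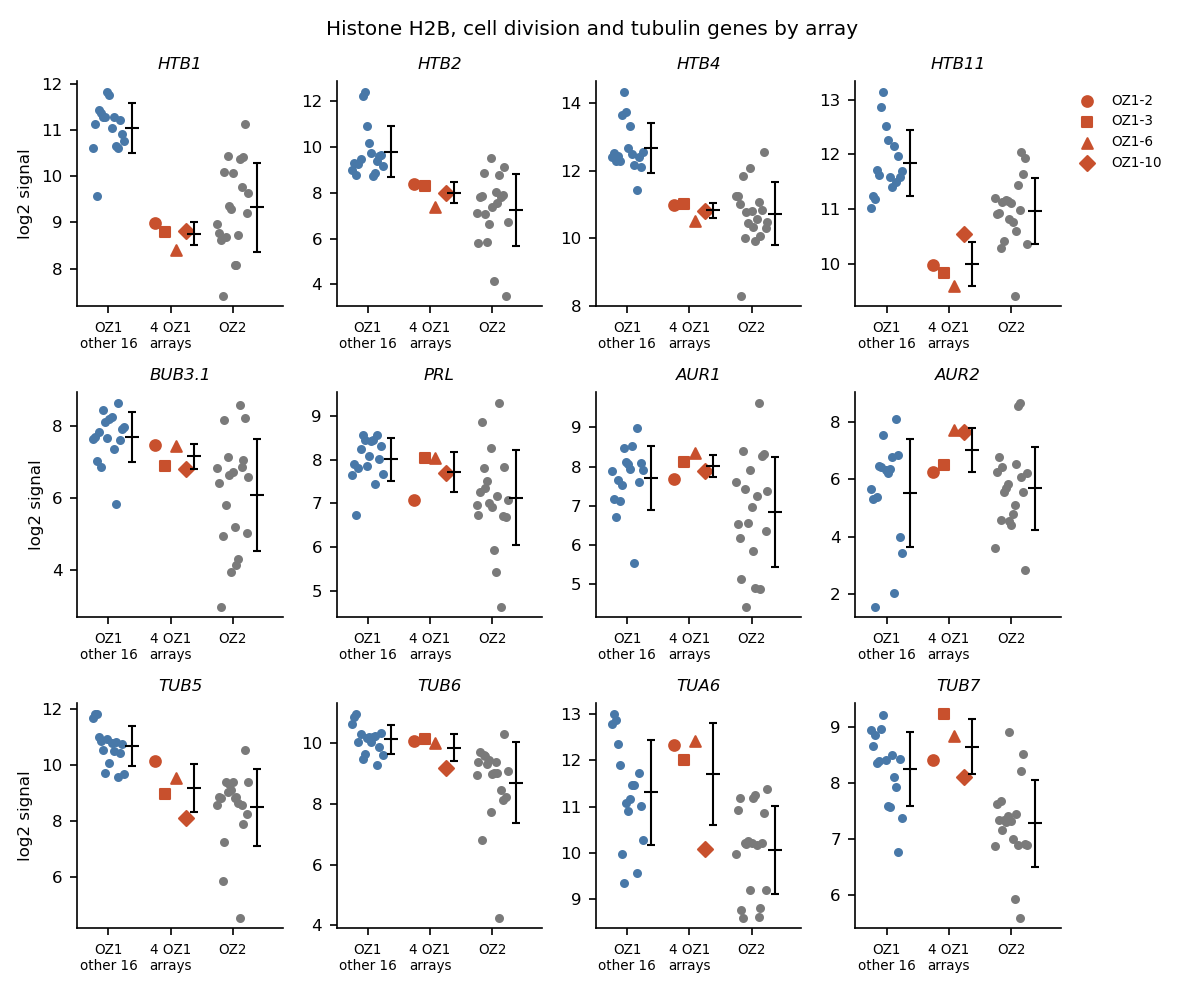
Log2 signals of 4 histone H2B genes (top), 4 genes of division and replication (middle) and 4 tubulins (bottom) on the other 16 OZ1 arrays (blue), the 4 chosen arrays (red) and OZ2 (grey), with bars for the mean ± SD. All 4 chosen arrays lie below all 16 for each H2B gene and among the 16 for BUB3.1, PRL and AUR1, and OZ1-10 (diamond) is the lowest of the 4 for each tubulin.

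Of 8 tetraspanins tested (15 named), small membrane proteins, 5 rose and 1 fell in OZ2, and after blocking on the scan day 2 rose and 1 fell. On the 4 arrays 4 were at least 2-fold higher and 1 lower. TET12 had log2 signals of 8.58, 8.40, 8.05 and 9.02, against 1.96 to 7.20 (median 4.35) on the 16 and 3.16 to 10.26 (median 9.24) in OZ2. TET8 read 9.88, 9.57, 10.48 and 11.02, against 7.21 to 9.12 (median 8.26) and 8.08 to 11.80 (median 10.19). In both genes the 4 arrays lay above all 16, and of the pair only TET12 passed after blocking (TET8 adjusted p = 0.0624). TET3 read 8.41, 7.43, 6.52 and 7.35, against 8.01 to 9.28 (median 8.53) and 7.42 to 9.90 (median 8.77), with OZ1-3, OZ1-6 and OZ1-10 below all 16, and it did not pass between the regions (limma adjusted p = 0.456).

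RALF-like peptides are secreted signals, and RALFL34 acts in the divisions that start a lateral root. RALFL34 had log2 signals of 8.98, 8.66, 9.27 and 7.65, against 10.08 to 12.23 (median 11.37) on the 16 and 6.96 to 11.30 (median 8.56) in OZ2. RALFL32 read 12.65, 12.86, 12.45 and 13.36, against 8.35 to 11.51 (median 9.58) and 9.53 to 13.83 (median 12.94). RALFL22 read 12.42, 11.47, 11.19 and 12.26, against 8.43 to 11.75 (median 9.56) and 8.75 to 13.62 (median 12.82). All 4 arrays lay below all 16 for RALFL34, which fell in OZ2, and above them for RALFL32, which rose. For RALFL22, which rose, OZ1-3 and OZ1-6 overlapped the 16. Of 7 tested (11 named) 3 rose and 1 fell, and RALFL27, the other that rose, had a log2 difference of 0.98 on the 4 arrays. After blocking on the scan day RALFL32 and RALFL34 passed, and RALFL22 and RALFL27 did not (adjusted p = 0.0564 and 0.209).

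COR47, a dehydrin of cold and drought, read 13.80, 14.42, 13.78 and 15.72, against 9.50 to 12.27 (median 10.18) on the 16 and 9.73 to 16.23 (median 14.12) in OZ2, so the 4 arrays lay above all 16. The transcription factors WRKY53 and STZ had log2 differences of 1.09 and 1.01 and overlapped the 16. These 3 rose in OZ2 and none passed after blocking on the scan day. Among 6 auxin-response genes tested (14 named), HAT2, an auxin-induced transcription factor, and GH3.17, which conjugates auxin to amino acids, fell in OZ2. HAT2 had log2 signals of 7.18, 9.46, 9.07 and 7.39, against 7.97 to 9.43 (median 8.86) and 5.08 to 8.62 (median 7.49). OZ1-2 and OZ1-10 lay below all 16 for HAT2, OZ1-3 above them all and OZ1-6 among them. The list's median log2 difference of 0.32 turned to -0.0033 with quantile normalization. The 8 genes of the list that did not pass the filter all had a higher mean on the 4 arrays than on the 16, with IAA31 at log2 signals of 7.56 against 4.04, IAA29 at 7.45 against 5.39 and IAA33 at 6.87 against 4.15. Their OZ2 means were 4.82, 4.99 and 4.54. The share of all genes below the filter with a higher mean on the 4 arrays was not computed. Whether the direction of these 8 genes is particular to the auxin-response list was therefore not tested. Among the expansins below the filter the means went both ways, with EXLA3 at log2 signals of 5.67 on the 4 arrays against 3.55 on the 16. EXPA16 was at 4.06 against 5.84.

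LBD16, which acts when lateral roots are initiated, read 6.86, 7.51, 7.65 and 8.00 on the log2 scale, against 1.14 to 7.82 (median 5.83) on the 16 and 3.61 to 9.35 (median 7.17) in OZ2. PUCHI, which acts in the young lateral root primordium, read 7.29, 6.97, 6.12 and 2.81, against 4.74 to 7.40 (median 6.60) and 3.43 to 9.12 (median 6.53). Only OZ1-10 left the range of the 16 for either gene, above it for LBD16 and below it for PUCHI. All 4 arrays lay above the median of the 16 for LBD16, and its mean was at least 2-fold higher on them. LBD16 rose in OZ2, though not after blocking on the scan day. The cortex list held 1 tested gene, AT1G62510, at 10.68, 9.61, 9.64 and 10.28, against 2.94 to 9.40 (median 7.03) and 4.87 to 11.12 (median 9.88). All 4 arrays lay above all 16. The lists for non-hair epidermis, endodermis, phloem and root cap had no matched probe set here, and of the quiescent centre list 2 genes were named and none passed the filter.

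Nuclear genes of the photosystems, fixed as signs of light-grown tissue, were also higher. Of 6 tested (7 named) 5 rose in OZ2, 2 after blocking on the scan day, and 4 were at least 2-fold higher on the 4 arrays, with a median log2 difference of 1.99. LHCB4.1, an antenna protein, read 7.98, 7.12, 7.82 and 8.22, against 2.20 to 6.94 (median 4.42) on the 16 and 1.79 to 9.28 (median 7.77) in OZ2. PSBY, a subunit of photosystem II, read 9.96, 9.06, 8.65 and 8.54, against 4.55 to 8.40 (median 7.33) and 6.11 to 9.92 (median 8.94). All 4 arrays lay above all 16 in both. The 69 plastid-encoded genes had a median log2 difference of -0.27 on the 4 arrays, with 3 at least 2-fold higher and 6 lower. That median was 0.41 on scan day 1 alone and -1.51 with the control level as a covariate, which left the nuclear list at 2.64. Single arrays with high controls went both ways, with plastid-encoded medians of 3.16 on OZ1-15, 3.71 on OZ1-16 and -0.80 on OZ1-31. The part of plastid RNA in these values was not tested.

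By the rule that names the widest gaps among all named genes, the 8 highest on the 4 arrays were AT3G18280, AT4G02090, AT4G13580, PRX72, AT3G22620, AT4G39675, AT3G18170 and AT4G26010, with log2 differences of 5.36 to 6.95. AT4G02090 had log2 signals of 8.91, 8.82, 9.24 and 12.12, against 1.43 to 5.58 (median 3.02) on the 16 and 3.30 to 12.58 (median 9.81) in OZ2. AT3G22620 read 12.57, 11.96, 13.65 and 12.92, against 2.10 to 10.42 (median 6.27) and 6.68 to 14.11 (median 12.87). All 8 rose in OZ2, and for all 8 the 4 arrays lay above all 16. The 8 lowest were AT1G73620, AT5G62340, AT2G41800, AT1G32190, AT2G20515, AT5G59070, AT2G43600 and AT5G51500, with log2 differences of -4.69 to -6.30. AT1G73620 read 6.89, 3.34, 3.70 and 6.18, against 8.81 to 12.35 (median 11.64) and 2.68 to 12.06 (median 5.95). AT2G41800 read 4.01, 5.36, 5.42 and 4.48, against 8.53 to 11.56 (median 10.54) and 3.44 to 10.79 (median 6.25). All 8 fell in OZ2, all 4 arrays lay below all 16, and for each of them the 4-array mean lay 0.27 to 1.59 below the OZ2 mean. These OZ2 means include OZ2-32 and OZ2-38, which lay nearer to OZ1 on the axis. For AT5G62340, with the smallest gap, OZ2-32 and OZ2-38 read 9.29 and 11.63, beside an OZ2 median of 4.90. The 4-array mean for AT5G62340 lay above that median. In both sets of 8, the region direction and the lack of overlap follow largely from choosing these arrays and then the widest gaps.

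Another rule named genes that separate the regions and that the 4 arrays did not carry, with all 4 on the OZ1 side of the midpoint between the 16 and OZ2. IQD33 (listed as iqd33), of a family of calmodulin-binding proteins, had log2 signals of 6.47, 8.69, 7.81 and 8.01, against 4.29 to 8.67 (median 7.78) on the 16 and 2.53 to 7.65 (median 4.27) in OZ2. AT1G73780 read 8.24, 10.06, 10.71 and 8.56, against 6.99 to 10.37 (median 9.22) and 1.91 to 9.04 (median 7.24). AT5G43020 read 6.41, 7.84, 7.65 and 6.95, against 5.70 to 8.35 (median 7.60) and 2.03 to 8.61 (median 5.43). These genes fell in OZ2, and no value of the 4 arrays lay below the range of the 16. For AT5G43020, OZ1-2 at 6.41 lay nearer to the OZ2 median than to the median of the 16. AT1G71070 and AT5G43720, which also fell, had log2 differences of -0.38 and -0.15 on the 4 arrays beside region differences of -2.14 and -2.07. AT1G21480 read 7.58, 7.95, 8.21 and 7.61, against 8.23 to 9.10 (median 8.67) and 3.15 to 7.97 (median 6.73), below all 16. By the group means, which the rule used, all 4 lay nearer to the 16 than to OZ2. By the medians OZ1-2 and OZ1-10 lay nearer to OZ2. The values of OZ1-2, OZ1-3 and OZ1-10 lay inside the OZ2 range.

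Of the genes that rose in OZ2, AT1G49500 and AT2G21180 were in this group. AT1G49500 read 9.14, 7.81, 8.97 and 9.17, against 5.58 to 9.41 (median 8.37) on the 16 and 8.13 to 12.19 (median 10.74) in OZ2. AT2G21180 read 7.23, 4.35, 6.64 and 4.98, against 3.44 to 7.61 (median 6.42) and 6.98 to 9.60 (median 8.53). In both genes every value of the 4 arrays lay inside the range of the 16.

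The last rule named genes whose mean on the 4 arrays lay farthest outside both the 16 and OZ2. AT1G62480 had log2 signals of 13.70, 14.50, 14.12 and 14.00, against 9.34 to 13.28 (median 10.89) on the 16 and 6.51 to 13.54 (median 12.38) in OZ2, above every other array. AT4G11290 read 12.64, 12.28, 13.13 and 10.80, against 6.83 to 12.10 (median 9.33) and 3.07 to 11.83 (median 10.82), with OZ1-2, OZ1-3 and OZ1-6 above every other array. AT2G06390, annotated as a pseudogene, and AT4G26880 had 4-array means 2.61 and 2.20 above the higher of the other group means. Neither of them, nor AT1G62480 or AT4G11290, passed between the regions.

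In the other direction, AT4G02220 read 2.66, 3.14, 4.16 and 3.90, against 3.71 to 8.71 (median 7.50) on the 16 and 2.92 to 8.63 (median 6.24) in OZ2. OZ1-2 and OZ1-3 lay below all 16 for AT4G02220 and OZ1-6 and OZ1-10 within their range. AT1G67310 read 6.40, 2.98, 2.84 and 3.20, against 3.27 to 7.95 (median 6.67) and 6.00 to 8.48 (median 7.50), with OZ1-2 at the level of the 16 and the other 3 below them. AT5G37530 and AT2G24960 had 4-array means 2.47 and 2.39 below the lower of the other group means. AT1G67310 rose in OZ2 (limma adjusted p = 0.00311), opposite to its difference on the 4 arrays, and the other 3 did not pass. These low signals lie under the filter level of 5.69, where their size is uncertain.

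The 4 arrays also differed from each other in which parts they carried. OZ1-10, the array nearest the OZ2 mean, had the highest signals of the 4 in EXPA7, EXPA18, AT4G13580, AT2G21100 and MT1C, and was the only 1 of the 4 with most of the tubulins that fell on the OZ2 side. OZ1-3, the single member from scan day 2, had the lowest EXPA7 and EXPA18 of the 4. It also had the fewest ATG8 genes on the OZ2 side, though read against other midpoints than the rest of the 4. All 4 had the 3 H2B genes that fell on the OZ2 side, beside a median of 0 and at most 1 on the 16. Of the 5 pectin-linked genes OZ1-2, OZ1-3 and OZ1-10 had 5 and OZ1-6 had 4 on the OZ2 side, beside at most 1 on the 16. Of the 8 called TBL genes they had 7, 5, 6 and 7, beside a median of 0 and at most 4 on the 16 and a median of 7 in OZ2. Over the whole programme the 4 arrays had 76.0% to 88.0% of the higher part and 61.3% to 73.6% of the lower part on the OZ2 side. The TBL counts lie around these shares. Counts of this kind, here and in the list paragraphs above, are to be read beside them.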

How the data were processed

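Each sample was 1 array. The authors deposited 1 intensity per probe set for each array, which MAS5 had computed per the submitters' processing notes, with its version not given in the sources used here. Instrument records (unit other), also deposited, gave the scan day. The trimmed mean per array was 249.8 to 249.9, so the values had been scaled, and they were used on the log2 scale with no further normalization. Of 22810 probe sets 64 controls were left out, and 13627 with a mean log2 signal above the 40th percentile (5.69, a signal of 51.8) were tested. Names came from the platform table and the TAIR10.1 annotation, where 13436 of 13513 probe sets with 1 gene matched, and each gene was represented by its brightest probe set. OZ2 was set against OZ1 by limma (version 3.58.1, run in R 4.3.3, eBayes with trend, two-sided, Benjamini-Hochberg, 0.05), which was tested on simulated data. Control measures were compared with exact permutation tests in Python. The array set, gene lists and naming rules (all list members, the 8 widest gaps each way, the 8 uncarried region genes, the 4 farthest outside both groups each way, and LBD16 and PUCHI) were chosen with earlier results of these data known. Lists for heat shock and mitochondrion-encoded genes had no matched probe set. Arrays sharing a title number did not deviate together (r from -0.248 to 0.196 over 14 pairs), so no pairing was used. The number of arrays limits the precision. Alternatives were quantile normalization, log2(value + 16), other filters, scan day, the control level as a term and leaving out arrays.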

Additional observations from a re-analysis of the deposited data

Results flagged for a closer look

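Within the 4 arrays, 14 of 220 items examined had 1 array far from the other 3 by Dixon's criterion, and chance alone gives about 1 in 20. All values are log2 signals. OZ1-10 was the highest of the 4 for AT3G18280 (14.35), AT4G02090 (12.12), EXLB1 (9.38) and the plastid-encoded ndhJ (9.79). OZ1-10 was the lowest for the tubulins TUA1 (3.87) and TUB6 (9.19), the wall genes TBL32 (3.64) and TBL18 (7.52), and the endoglucanase GH9B13 (8.75). OZ1-3 was the highest for AT2G31110 (10.19) and the plastid-encoded ndhI (9.42) and the lowest for AT1G49500 (7.81). OZ1-6 was the lowest for GH9B5 (5.39), and OZ1-2 was the highest for AT1G67310 (6.40).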

How the results depend on the processing

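Of the list medians, 197 values under other settings moved by less than the spread of single arrays, 21 moved by more and 2 reversed, and of the named genes' differences 2081 and 29. The 2 reversals were those of the auxin-response list, at -0.0033 with quantile normalization and -0.27 with the control level in the model. Counts of calls between the regions were 1535 after blocking on the scan day and 4949 without the 4 arrays. The blocked fit compares the regions on scan day 1 alone. Probe sets at least 2-fold apart were 8368 with no filter, 3172 with a filter at the 60th percentile and 4841 to 5281 without each array in turn. The hybridisation control difference was 1.62 with quantile normalization, where it passed (exact permutation test, adjusted p = 0.0211), and 1.33 to 1.93 without each of the 4 arrays, passing without OZ1-2 (1.93, adjusted p = 0.0310). The poly-A control difference was 2.16 on scan day 1 alone and 3.102 to 4.16 without each array, not passing without OZ1-6 (3.33, adjusted p = 0.0578) or OZ1-10 (3.102, adjusted p = 0.0826). List medians that moved were root hair (2.30 with no filter, where XTH26 enters), expansins (1.21 with the 60th percentile filter, -0.75 on scan day 1), endoglucanases (0.65 with the 60th percentile filter, -0.46 with the control term), wall acetylation (0.43 with quantile normalization) and autophagy (1.10 with the control term). Without each array in turn the endoglucanase median was -0.33 to 0.31, the lowest without OZ1-6, and that of wall acetylation 0.43 to 0.86. The cause of these shifts was not tested, apart from the genes that a filter adds or removes. With a replicate block over the 14 shared numbers 3601 probe sets passed, and 3577 in the same arrays without the block. The 4 arrays limit the precision of every difference, levels below the filter are uncertain in size, and the choice of arrays fixes the direction of most differences.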
